A study of Mus musculus with 8 samples.

Results

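The genes described here are 9 liver enzymes that dispose of amino acid nitrogen or break amino acids down. They are the 6 urea cycle genes Nags, Cps1, Otc, Ass1, Asl and Arg1 and the 3 breakdown genes Tat, Hal and Tdo2, out of 21755 protein-coding genes on chromosomes 1 to 19 and X. They were chosen by name, with earlier results of these data known. Every listed region overlapping a gene body or lying within 10 kb of it was counted. Chromatin was studied by ATAC-seq, in which a transposase inserts sequencing adapters into accessible DNA, on nuclei of frozen livers of adult mice, labelled C57BL/6 and given as C57BL/6J in the methods. Each genotype gave 4 libraries, made from 50000 nuclei apiece. Alb-D2KO mice carry a floxed Dio2 gene, which encodes the type 2 deiodinase that makes active thyroid hormone, and a Cre recombinase driven by the albumin promoter. The control animals are titled as Cre mice, so both groups are labelled as carrying the recombinase. Because albumin is a hepatocyte product, Dio2 is lost in hepatocytes, while the nuclei come from whole liver with its other cell types.

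The urea cycle turns ammonia, which is toxic, into urea for excretion, and most of its capacity sits in hepatocytes. Nags makes N-acetylglutamate, the obligatory activator of Cps1, and Cps1 fixes ammonia as carbamoyl phosphate in mitochondria. Otc joins that product to ornithine to give citrulline, Ass1 adds aspartate, Asl splits the result into arginine and fumarate, and Arg1 releases urea and restores ornithine. Tat, Hal and Tdo2 catalyse early steps in the breakdown of tyrosine, histidine and tryptophan, and Tat is a textbook gene of glucocorticoid induction in liver.

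One list holds 8031 open regions of control liver that overlapped no open region of Alb-D2KO liver, the areas of reduced chromatin accessibility (RCAs). The other holds 250 open regions found in Alb-D2KO liver alone. Each list comes from a single call on pooled libraries, so no value has a replicate error, no test between genotypes was possible, and the depth is unknown. The signal at an RCA in Alb-D2KO liver is not listed, so an RCA marks a region that was called in one genotype and not in the other, with no size of the loss. The regions are numbered along the genome, and a control number absent from the list was read as a region retained in Alb-D2KO liver. The numbers run up to values that stand for at least 22368 control and at least 14825 Alb-D2KO regions. For Alb-D2KO liver this is above the total that the paper reports, and the reason is not known. By the count from the numbers, 35.9% of control regions were RCAs and 1.69% of Alb-D2KO regions were open in Alb-D2KO liver alone. Whether depth or library quality has a part in this difference was not tested. Since open regions shared by the genotypes are not listed, the liver's marker genes could not be checked, and the comparison genes include genes with no open region in control liver. Fewer nuclei of a cell type and less open DNA per nucleus cannot be told apart in such libraries.

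RCAs were present at 7 of the 9 genes (77.8%), where 5497 of all 21755 protein-coding genes (25.3%) had at least 1. Protein-coding genes 0.67 to 1.5 times as long as each member, the genes of similar length below, had an RCA in 27.0% on average over the 9 lengths. The 9 genes held 15 RCAs, or 1.67 per gene, against a mean of 0.430 in the genes of similar length and 0.414 in all protein-coding genes. No gene of the 9 had a region open only in Alb-D2KO liver, which 222 protein-coding genes (1.02%) had. The nearest such region lay 612 kb from Ass1, and that of Nags 16296 kb away. Of the 6 urea cycle genes 4 held 9 RCAs, and all 3 breakdown genes held RCAs, 6 in sum.

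The clearest feature was position. At 5 of the 9 genes (55.6%), namely Nags, Arg1, Tat, Hal and Tdo2, an RCA lay within 200 bp of an annotated start site of the gene itself. The same was true of 1303 of all 21755 protein-coding genes (5.99%) and of 6.57% of genes of similar length, averaged over the 9 lengths. At these starts the −log10 q at the summit was 2.92 and 3.16 for Nags, 2.75 for Arg1 and 2.69 for Tat. It was 3.20 for Hal and 2.97 for Tdo2, against a median of 3.14 in all RCAs. Of the 15 RCAs, 8 were upstream of the gene (53.3%), 4 covered its start (26.7%), 3 were downstream of the start inside the gene, and none lay beyond the 3′ end. Counted by the same rule over all protein-coding genes, of every length, 9013 pairs of a gene and an RCA were upstream in 20.2%, over the start in 7.48%, inside the gene in 50.7% and beyond the 3′ end in 21.7%. Within 5 kb of the start were 12 of the 15 RCAs (80.0%) and 33.3% of those pairs. Nags and Tat held 4 RCAs each, so the 15 are not separate cases, and the pairs were not matched to the members in gene length. By the order promoter (within 200 bp of any annotated start site), exon, intron and intergenic, 6 were promoter RCAs (p-RCAs), 3 were intronic and 6 intergenic. The p-RCA share was thus 40.0%, against 23.0% of the 6385 RCAs within 10 kb of any protein-coding gene and 19.4% of all RCAs.

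**Figure D1:**
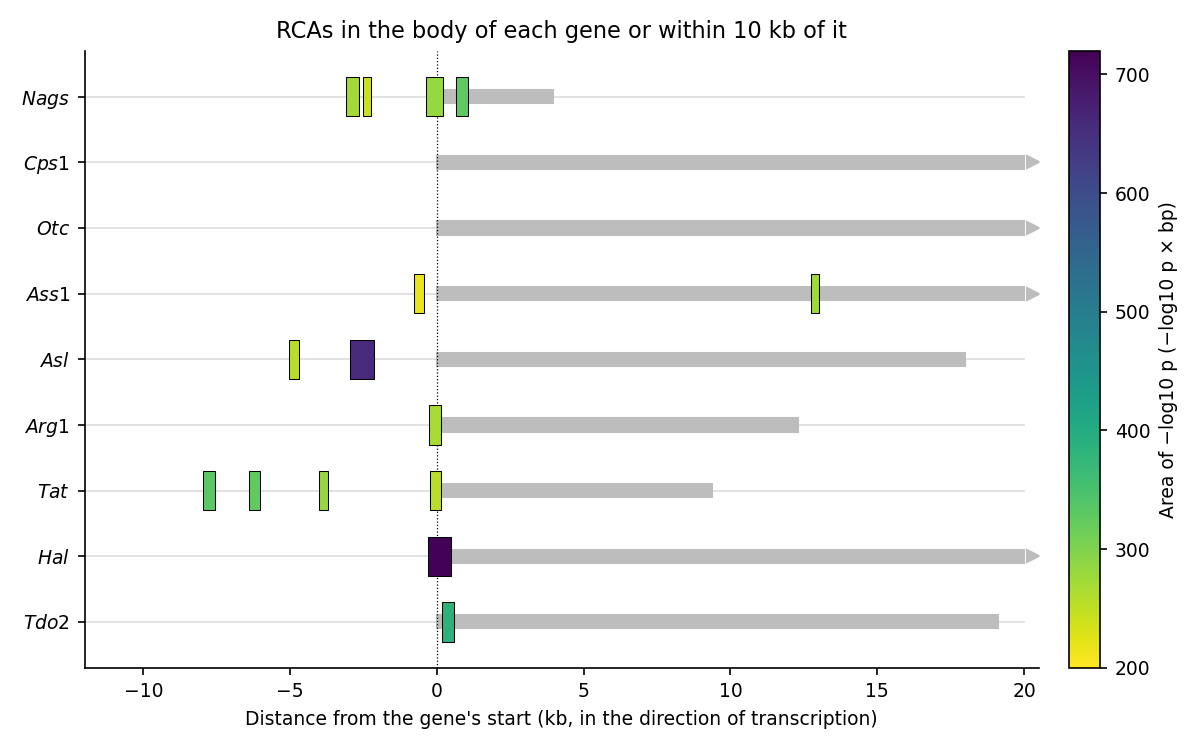
RCAs at the 9 genes, drawn to scale by distance from the gene's start in kb along the direction of transcription. Grey bars are gene bodies, cut at 20 kb where an arrowhead follows, and boxes are RCAs coloured by area. The start or the sequence upstream of it holds 12 of the 15 RCAs, and Cps1 and Otc have none.

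The sequences below are shown because they are the listed DNA at the starts of Nags, Tat and Hal and at the 3 distal RCAs of Tat, one of the 2 genes with 4 RCAs. All are on the plus strand of the mm10 build (GRCm38.p6), which is the coding strand of these genes, and none overlaps an annotated UTR. The pieces before the starts are the 200 bases that end just upstream of the start and lie wholly within the RCA. They are chr11:102145313-102145512 for Nags, chr8:109990237-109990436 for Tat and chr10:93488568-93488767 for Hal. The distal pieces of Tat are centred on the summit with 100 bases on each side, at chr8:109982506-109982706, chr8:109984199-109984399 and chr8:109986442-109986642. Capitals mark matches on either strand to any of 7 short motifs, which are the C/EBP motif TTGCNNAA, HNF4 CAAAGTNCA, FOXA TGTTTAC, HNF1 GTTAAT, the nuclear receptor core AGGTCA, the GC box GGGCGG and the E-box CACGTG. N stands for any base, and these motifs are factors' usual sequences rather than evidence of binding.
Nags, before the start: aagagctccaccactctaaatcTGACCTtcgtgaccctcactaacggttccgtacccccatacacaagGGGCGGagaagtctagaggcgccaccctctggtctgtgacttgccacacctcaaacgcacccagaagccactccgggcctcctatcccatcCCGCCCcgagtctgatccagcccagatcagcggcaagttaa
Tat, before the start: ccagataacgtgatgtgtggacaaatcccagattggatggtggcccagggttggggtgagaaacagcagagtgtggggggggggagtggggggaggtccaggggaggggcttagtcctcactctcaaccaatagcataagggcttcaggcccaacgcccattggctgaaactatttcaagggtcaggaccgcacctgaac
Hal, before the start: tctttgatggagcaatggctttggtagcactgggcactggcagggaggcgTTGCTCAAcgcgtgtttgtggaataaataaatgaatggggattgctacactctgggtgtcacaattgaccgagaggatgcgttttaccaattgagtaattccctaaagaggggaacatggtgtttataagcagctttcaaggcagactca
Tat, most distal: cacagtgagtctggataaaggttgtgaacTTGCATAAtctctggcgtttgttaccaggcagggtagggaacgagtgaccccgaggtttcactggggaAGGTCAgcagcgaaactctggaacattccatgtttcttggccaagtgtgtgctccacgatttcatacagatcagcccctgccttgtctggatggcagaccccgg
Tat, middle: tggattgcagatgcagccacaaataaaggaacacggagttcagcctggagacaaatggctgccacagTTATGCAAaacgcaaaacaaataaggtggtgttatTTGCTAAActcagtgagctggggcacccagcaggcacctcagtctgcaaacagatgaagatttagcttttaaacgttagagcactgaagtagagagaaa
Tat, nearest: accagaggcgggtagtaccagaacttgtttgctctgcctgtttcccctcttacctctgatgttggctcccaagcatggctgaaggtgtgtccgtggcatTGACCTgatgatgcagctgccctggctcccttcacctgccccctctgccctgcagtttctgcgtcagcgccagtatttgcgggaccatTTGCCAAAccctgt

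Nags, on chromosome 11 from 102145513 to 102149477, is a short gene of 3.96 kb and held 4 RCAs that followed each other along the chromosome. The RCA over its start ran from 102145148 to 102145728 and covered the 5′ UTR and coding sequence. It was 581 bp wide with an area of 282. The area is one under the −log10 p curve of the region, in −log10 p times bp, and grows with both width and height. Whether it takes in the whole curve or only the part above the calling limit is not stated. A second p-RCA at 102146161-102146582 began 648 bp into the gene, over coding sequence and a further Nags start site, and had an area of 329, the highest of the 4. The 2 intergenic RCAs ended 2653 and 2260 bp before the start, at 102142417-102142860 and 102142983-102143253, with areas of 272 and 244. Both p-RCAs also overlapped Gm11586, an antisense gene within Nags, and accessibility cannot be assigned to one strand. Only 0.625% of the 2878 genes of similar length had as many as 4 RCAs, and 18.7% had any.

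In the order of open regions in control liver, the 4 Nags RCAs followed each other with no retained region between them, over 4166 bp. Between the neighbouring RCAs on either side, 247 kb apart, the control call had 12 regions, of which these 4 were RCAs and 8 were retained, 5 before them and 3 after. The sequence before the Nags start held GC boxes beginning 132 and 41 bases before the start and a nuclear receptor core at 178 bases. A GC box occurred in 37.8% and a nuclear receptor core in 10.3% of the 200 bases before all 21755 protein-coding genes.

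Cps1, the enzyme that Nags activates, had no RCA. It lies on chromosome 1 from 67123026 to 67231259, and at 108 kb it is the longest of the 9. Among 2186 genes of similar length 34.4% had an RCA, so a gene without one was the more frequent case. The nearest RCA, at 67103944-67104196 with an area of 227, ended 18830 bp before the start. The next one on the other side came 4530 kb later, and the control call had 4 regions in between. Because the interval ends at the neighbouring RCAs, none of them could be an RCA, and their positions are not listed.

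Otc, on chromosome X from 10252305 to 10321024 (68.7 kb), also had none, and its nearest RCA was 396129 bp away. Of the genes of similar length 31.9% had an RCA, but X as a whole was poor in them, with 40 RCAs and an RCA at 5.27% of its 948 protein-coding genes. Between the RCAs on either side of Otc, 2642 kb apart, the control call had 3 regions. By the choice of that interval none of them could be an RCA, and their positions within it are not listed. Cps1 and Otc, the pair of genes without an RCA, were the 2 longest members and carry out the mitochondrial steps of the cycle after Nags.

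Ass1, on chromosome 2 from 31470207 to 31520672 (50.5 kb), had 2 RCAs. The first, at 31469415-31469753, was intergenic and ended 454 bp before the start, outside the promoter window of 200 bp. Its area of 218 was the lowest of the 15, and 85.3% of all RCAs had an area at least as large. The other lay in an intron 12749 bp after the start, at 31482956-31483215, and was the narrowest of the 15 at 260 bp, with an area of 274 and the highest −log10 q at the summit, 3.34. A retained control region stood between them, so they were not consecutive. At least 2 RCAs were found at 11.3% of the 3623 genes of similar length.

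Asl, on the minus strand of chromosome 5 from 130011258 to 130029247 (18.0 kb), had 2 consecutive RCAs, both upstream and neither in its body. They lay in an intron of Crcp, a protein-coding gene that starts 43 bp from Asl and runs the other way. The nearer one, at 130031393-130032198, was 806 bp wide, the widest of the 15. Its area of 659 ranked 107 of 8031, and 1.33% of RCAs reached it. The farther one, at 130033953-130034296, had an area of 253 and the lowest −log10 q of the 15, 2.56. The nearer region was 2146 bp from the start of Asl and 2050 bp from the nearest start of Crcp, and the farther one 4706 and 4610 bp, so counting them for Asl rests on the window rather than on the nearest start. When only RCAs whose nearest protein-coding start was the gene's own were counted, a choice made after seeing the data, Asl dropped out and 6 of 9 genes held 13 RCAs, where 18.6% of all protein-coding genes had 1 or more.

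Arg1, on the minus strand of chromosome 10 from 24915221 to 24927484 (12.3 kb), had 1 RCA, a p-RCA over its start at 24927329-24927738. It was 410 bp wide with an area of 268, which is in the middle of the list at rank 4363. The region covered the 5′ UTR, coding sequence and the start of Gm36172, a noncoding gene transcribed the other way from the same promoter. A single RCA or more was found at 24.7% of the 4600 genes of similar length, and at the own start in 5.61%.

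Tat, on chromosome 8 from 109990437 to 109999803 (9.37 kb), had 4 RCAs, as many as Nags. The p-RCA over its start, at 109990194-109990588, had an area of 255, the lowest of the 4. The upstream RCAs ended 7559, 6041 and 3695 bp before the start, with areas of 334, 326 and 281. Their widths were 425, 359 and 308 bp, against 395 bp at the start. The area was thus lower in each RCA nearer to the gene. At least 4 RCAs were found at 0.917% of the 4363 genes of similar length, and at 345 of all protein-coding genes (1.59%).

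The series of Tat did not end at the 10 kb limit. The RCAs numbered just before the 4 lay 10.7 and 17.2 kb upstream, with areas of 328 and 338, and the 6 followed each other without a retained control region over 17.7 kb. Runs of at least 6 such neighbours held 9.40% of all RCAs, and runs of at least 4 held 23.6%. After the RCA at the start, the next 3 control regions were retained. Their positions are not listed, and the next RCA began only at 110646164.

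Each of the 3 distal Tat pieces printed above held the C/EBP motif. It began 7902 bases before the start in the most distal piece, at 6171 and 6136 in the middle one and at 3808 in the nearest. Matches to the nuclear receptor core stood in the most distal and the nearest piece. C/EBP proteins are among the transcription factors of hepatocytes, and the motif occurred in the summit windows of 5 of the 15 RCAs (33.3%), against 1152 of the 8021 RCAs on assembled chromosomes (14.4%) and 15.5% of those outside promoters. All 5 lay outside promoters, at only 2 of the genes, 3 at Tat and 2 at Asl, so the 5 windows are not separate cases. The 200 bases before the Tat start matched none of the 7 motifs.

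Hal, on chromosome 10 from 93488768 to 93519304 (30.5 kb), had 1 RCA, and it had the largest area of the 15. It covered the start at 93488461-93489259, including the 5′ UTR and coding sequence, was 799 bp wide, and had an area of 716. That area ranked 65 of 8031 and was reached by 0.809% of RCAs. The area per bp was 0.897, below the median of 0.909 in all RCAs. The −log10 q at the summit was 3.20, below the 3.34 of the intronic Ass1 RCA. The control regions on both sides were retained, so the RCA stood alone between them. The sequence before the start held the C/EBP motif beginning 150 bases upstream, which 7.23% of the 200-base pieces before all protein-coding genes held. The next RCA downstream, at 93543237-93543573, was that of Amdhd1, an enzyme of the same pathway described below with its group.

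Tdo2, on the minus strand of chromosome 3 from 81957090 to 81976202 (19.1 kb), had 1 RCA at 81975613-81976025. It began 177 bp after the GENCODE start and had an area of 385, which ranked 1464. RefSeq places the start 474 bp into the GENCODE gene, at 81975728, inside this RCA. RCAs also lay 14.4 and 19.3 kb upstream, with areas of 241 and 234. With the Tdo2 RCA these belonged to a run of 6 RCAs without a retained control region between them, over 358 kb. At an own start, an RCA was found in 6.50% of the 4751 genes of similar length.

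**Figure D2:**
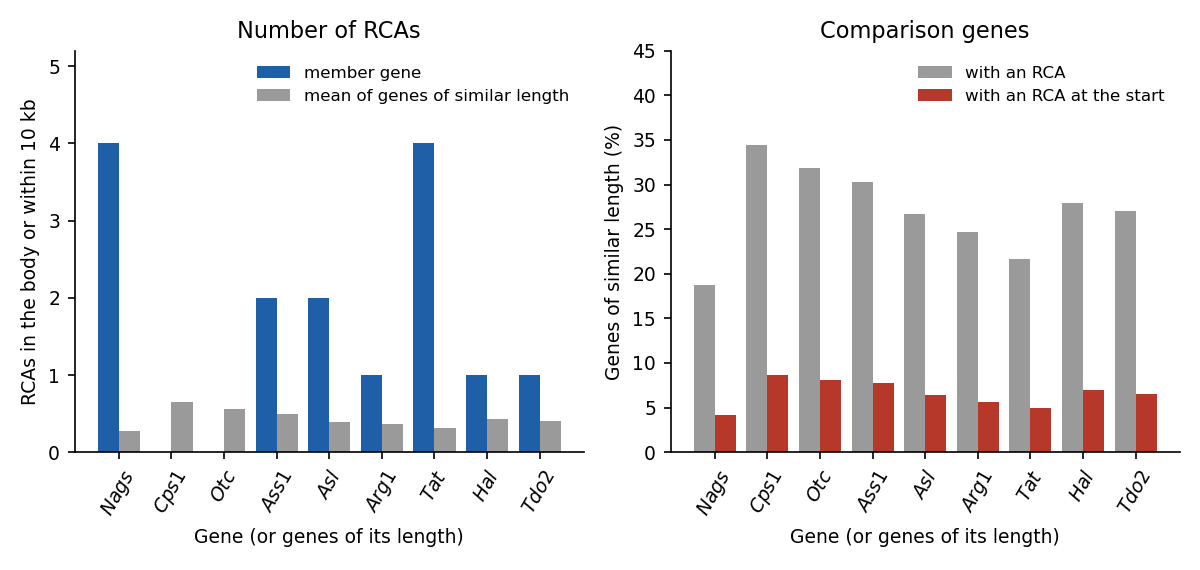
Left, number of RCAs in the body or within 10 kb of each of the 9 genes (blue) and mean number in genes of similar length (grey). Right, share in % of genes of similar length with an RCA (grey) or with one within 200 bp of an own start (red). Nags and Tat have 4 RCAs each against means of 0.273 and 0.320, and no comparison set has a mean above 0.648.

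In area the 15 RCAs were close to the list they came from, with a median of 281 and a range of 218 to 716, against a median of 278 in all RCAs. The lowest area was 200 in both lists, so a limit at that value may also have decided which regions were called. A region just under it in Alb-D2KO liver would then go unlisted, and its control counterpart would count as an RCA. An area of at least 300 was reached by 6 of the 15 (40.0%) and by 40.8% of all RCAs. Their median width was 410 bp against 326 bp, and their median area per bp 0.786 against 0.909. The median −log10 q at the summit was 2.97, against 3.14. Neighbours in the numbering were also RCAs for 12 of the 15 (80.0%), as for 64.4% of all RCAs.

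**Figure D3:**
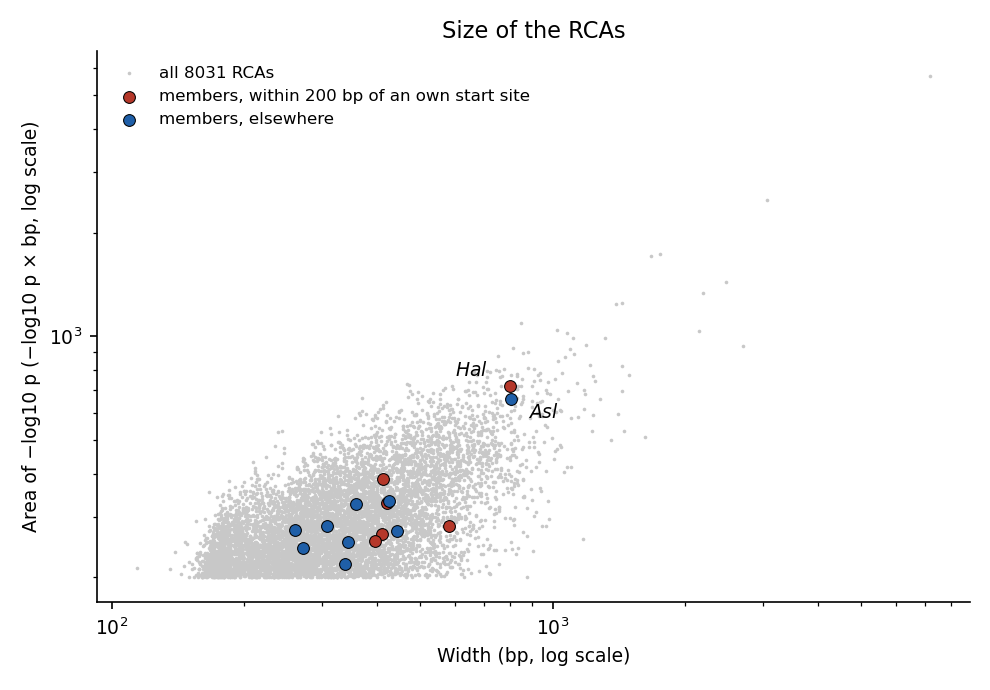
Area against width of all 8031 RCAs (grey) and of the 15 at the 9 genes, on log axes. Red points are the 6 RCAs within 200 bp of an annotated start site of the gene itself and blue points the others. Hal (716) and Asl (659) stand above the remaining 13, which reach 385 at most.

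The median GC content around the summits of the 6 p-RCAs of the 9 genes was 54.2%, against 60.2% in all 1560 p-RCAs, and the median number of CpG dinucleotides was 6.50 against 11.0. For the other 9 windows the medians were 51.7% and 3, against 50.7% and 3 in all RCAs outside promoters. The GC box occurred in 3 of the 15 windows (20%), a pair of them at Nags and 1 at Arg1. In all RCAs it occurred in 14.4%, and in p-RCAs in 39.9%. The nuclear receptor core was in 4 of 15 windows (26.7%) against 23.8%, and FOXA in 1 (6.67%) against 5.01%. HNF4, HNF1 and E-box sequences were in none of the 15 windows and in 5.09%, 6.05% and 5.82% of all windows, which says only that these letters were not within 100 bases of the summits.

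**Figure D4:**
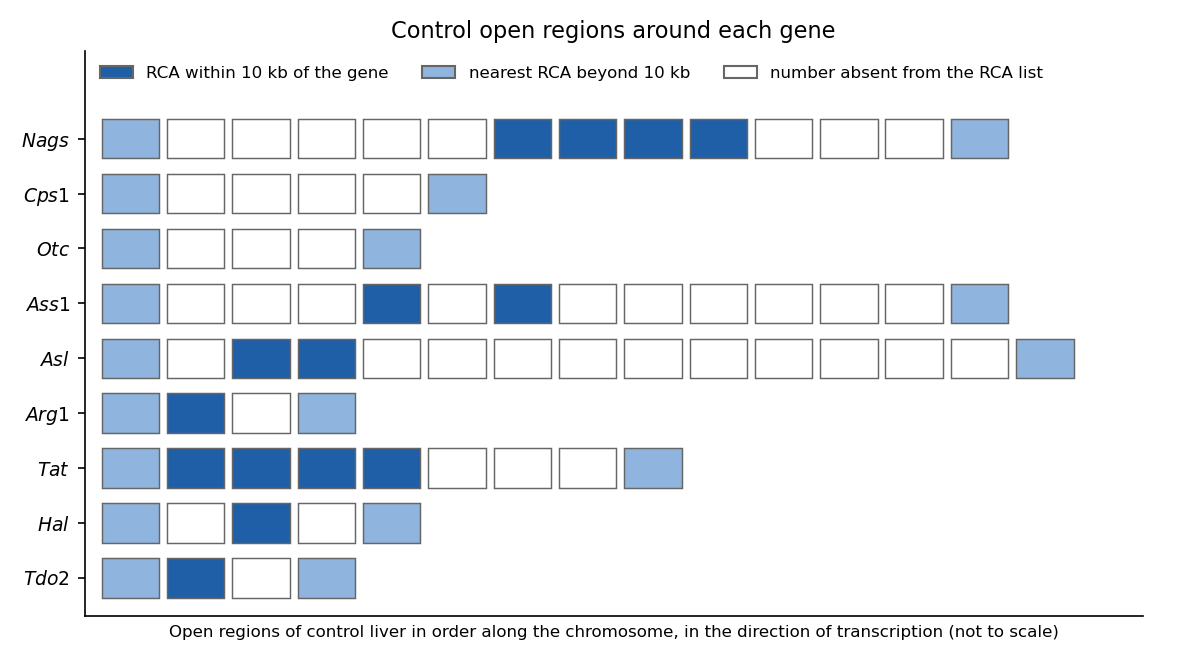
Open regions of control liver around each gene in their order along the direction of transcription, from the nearest RCA before to the nearest RCA after those counted. Dark boxes are the 15 RCAs within 10 kb, light blue boxes the nearest RCAs farther away, and white boxes the 43 numbers that are absent from the RCA list. The RCAs of Nags, Tat and Asl stand side by side, and those of Ass1 and Hal are set apart by white boxes.

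Other genes of amino acid metabolism were described from lists by pathway, 76 genes in all. RCAs were found at 49 of them (64.5%), against a mean of 27.5% in genes of similar length, and these genes shared 91 different RCAs. An RCA at an own start was found at 14 (18.4%), against 6.70%. The 9 genes and the lists were chosen with earlier results of these data known, so these shares are descriptions.

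The share differed among pathways. In the methionine, cysteine, serine and glycine group 18 of 20 genes (90.0%) had an RCA, against 26.1% of genes of similar length, and 7 (35.0%) had one at the start, against 6.28%. The group held 29 different RCAs, and some neighbouring genes were counted from the same RCA, so the 18 are not all separate cases. Ahcy, which hydrolyses S-adenosylhomocysteine, had the largest area of that group, 645, in an RCA beyond its 3′ end. All 3 further histidine genes had an RCA, against 26.7%, and none had it at the start, against 6.42%. These were Uroc1 and Amdhd1, the enzymes after Hal, and Ftcd, which ends the pathway and had the largest area, 479. The Amdhd1 RCA, named after its value was seen, was in an intron of another gene 3204 bp from the Amdhd1 start and had an area of 437. The Uroc1 RCA, of area 394, was also in an intron of another gene, 8489 bp from the Uroc1 start.

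The phenylalanine and tyrosine group, the pathway of Tat, had RCAs at 5 of 7 genes (71.4%), against 26.3%, and at the start of 3 (42.9%), against 6.31%. Hgd, homogentisate dioxygenase, led with a p-RCA of area 521. The tryptophan group, the pathway of Tdo2, also had RCAs at 5 of 7 genes, against 29.4%, and at the start of 1 (14.3%), against 7.32%. Afmid, the formamidase after Tdo2, had 6 RCAs with areas up to 651. The largest was intergenic, beyond the 3′ end and 20321 bp from the Afmid start. Urea cycle partners, which include carriers, transaminases and glutamine enzymes among others, had RCAs at 8 of 13 genes (61.5%), against 26.1%, and none at a start, against 6.28%. Gpt2, a mitochondrial alanine aminotransferase, led with an intergenic RCA of area 786, which ranked 34.

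Branched-chain breakdown genes had RCAs at 5 of 15 (33.3%), near the 30.3% of genes of similar length, and none at a start, against 7.47%. Auh, an enzyme of leucine breakdown, had the largest area there, 357, in an intergenic RCA beyond its 3′ end, 96563 bp from its start. Lysine and proline genes were as near to their comparison, at 2 of 7 (28.6%) against 27.7%, and had none at a start, against 6.83%, with Aldh7a1 of lysine breakdown leading at 271. Among amino acid transporters 3 of 4 had RCAs, each with one at the start, against 28.5% and 6.88%. Slc38a3, a glutamine transporter, had 7 RCAs, the largest of area 986 at rank 14. Kynu and Dao, named after their values were seen, were the 2 of the 76 genes with a region open in Alb-D2KO liver alone. Such a region was found at 1.02% of all protein-coding genes. Neither Kynu nor Dao had an RCA.

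**Figure D5:**
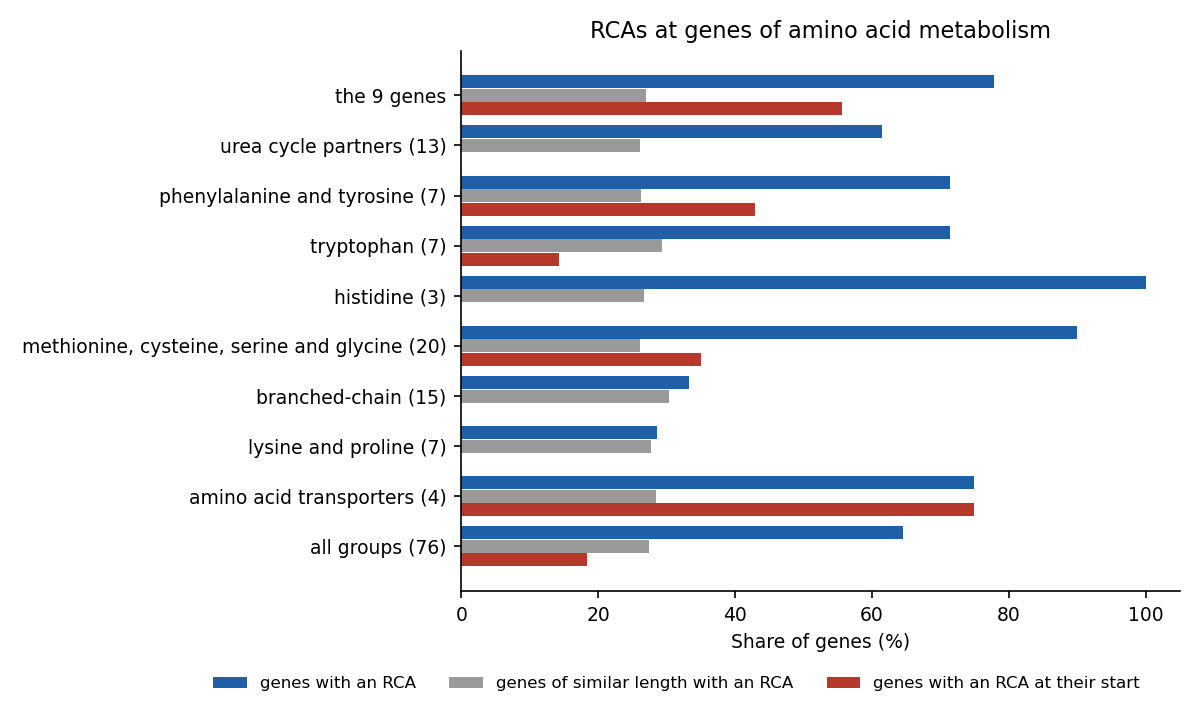
Share in % of genes with an RCA in the body or within 10 kb (blue), of genes of similar length with one (grey, mean over the genes) and of genes with an RCA within 200 bp of an own start (red), for the 9 genes and 8 groups of other genes with their number in parentheses. Branched-chain and lysine and proline genes sit beside their grey bars at 33.3% and 28.6%, and the remaining groups range from 61.5% to 100%.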

How the data were processed

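ATAC-seq of 4 control and 4 Alb-D2KO liver libraries was deposited as 2 region lists. The authors trimmed adapters, aligned reads to mm10 with BWA 0.7.17, removed duplicate, chimeric, supplementary and poorly mapped (MAPQ under 30) reads, called regions with Genrich 0.6 at a q of 0.05 on grouped libraries outside a blacklist, and kept regions without overlap in the other genotype. In the deposited lists the signal was taken as an area under the −log10 p curve of a region, whole or above the calling limit. The −log10 q is that of its summit. The lowest area in either list was 200. The deposited score was only checked against area per bp.

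Regions were matched to GENCODE M21, an mm10 annotation (the methods name M24), with python 3.11.15 and pandas 2.3.3, and bases were read from GRCm38.p6 with pysam 0.24.0. RefSeq promoter entries matched 6 members, Nags, Otc, Ass1, Tat, Hal and Tdo2, and not Cps1, Asl and Arg1. Counting was tested on simulated data. The members and lists were chosen with earlier results of these data known. Named genes were the members, genes whose start was nearest to a counted region, and the gene with the largest area in each pathway list. Uroc1, Amdhd1, Kynu and Dao, outside this rule, were named after their values were seen. No test was made, since the calls are pooled.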

Additional observations from a re-analysis of the deposited data

How the results depend on the processing

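No library could be left out and no paired analysis was possible because each list holds 1 pooled call. The number of genes with an RCA, 7 of 9, ranged from 5 to 8 over 6 other settings, always above the share of all protein-coding genes. The 15 RCAs became 7 with the gene body alone, 28 within 50 kb, 6 with an area of at least 300 and 5 with a −log10 q of at least 3. They were 13 within 5 kb or with RCAs up to 1000 bp apart merged. A promoter window of 3000 bp gave 10 p-RCAs in place of 6. The count of 5 genes with an RCA at an own start was not repeated under other settings. The mean share of genes of similar length with an RCA, 27.0%, was 13.8% with an area of at least 300 and 26.8% to 29.5% under other choices of comparison genes. Within 50 kb, 0 of the 9 genes had a region open only in Alb-D2KO liver, against 2.19% of all protein-coding genes.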
